A study of Mus musculus with 46 samples.

Results

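The cytosolic ribosomal protein genes were described in mouse bone marrow-derived macrophages (BMDM, macrophages grown in culture from bone marrow cells). They were chosen by symbol alone: Rpl or Rps followed by a number and at most a short suffix, together with Rplp0, Rplp1, Rplp2 and Rpsa. The rule found 86 genes, among 24537 genes listed for experiments 1 and 3 and 25124 listed for experiments 2 and 4. No measured value entered the rule.

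The study perturbed SWI/SNF, the family of ATP-driven chromatin remodelling complexes, and stimulated the cells with lipid A, the part of bacterial lipopolysaccharide (LPS) that activates Toll-like receptor 4, or with LPS itself. In experiment 1, cells treated with ACBI1, BRM014 or BRDK98 and stimulated with lipid A for 4 hr stood beside WT cells at 0, 1 and 4 hr. In experiment 2, Arid1a-/- cells at 1 and 4 hr of LPS stood beside Arid1af/f cells at 0, 1 and 4 hr. In experiment 3, Pbrm1-/- cells at 4 hr of lipid A stood beside Pbrm1f/f cells at 0 and 4 hr. In experiment 4, cells treated with the same 3 compounds at 20 and 60 min of lipid A stood beside WT cells at 0, 20 and 60 min. ACBI1 is known as a degrader of the SWI/SNF ATPases and Pbrm1, and BRM014 as an inhibitor of the ATPases. The labels give no dose, and are silent on how gene loss was induced and on the origin of the replicates (cultures or animals), so p-values measure the spread between these libraries, which may be technical.

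Each group held 2 libraries, except the 4 hr control of experiment 1, which held 1; its comparisons assume that it varied like the other groups. Depth was 7015041 to 27527109 exonic reads per library, of which the members took 0.199% to 1.05%. The list of macrophage markers summed to 16200 to 49700 TPM in every library (TPM is a gene's reads per length as a share of the library's total), while the lymphocyte list reached at most 1.22 TPM. The granulocyte list summed to 6.54 to 52.9 TPM in experiments 1 and 2 and to 277 to 524 TPM in experiments 3 and 4. One library stood apart. In the 1 hr control replicate 1 of experiment 1, 92 genes exceeded every other library of that experiment 10 times over, and the stromal markers, led by the collagen genes Col1a1 and Col1a2, summed to 150.8 TPM against at most 0.299 TPM elsewhere in the experiment. The targeted genes were lower where the labels say so. Arid1a had 7.17 and 13.2 TPM in Arid1a-/- cells, against 18.3 and 17.3 TPM in Arid1af/f cells at 1 hr, and 25.4 and 26.1 TPM in Arid1a-/- cells, against 35.2 and 41.9 TPM in Arid1af/f cells at 4 hr. Pbrm1 had 4.54 and 5.03 TPM in Pbrm1-/- cells, against 15.6 and 14.7 TPM in Pbrm1f/f cells at 4 hr. In bulk samples, fewer cells of a type and less RNA per cell cannot be told apart.

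A cytosolic ribosome is built of a large subunit, whose proteins carry Rpl names, and a small subunit, whose proteins carry Rps names; Rplp0, Rplp1 and Rplp2 form the stalk that recruits translation factors. The messenger RNAs of these proteins typically begin with an unbroken run of C and T (C and U in the RNA) at the cap, the 5′ terminal oligopyrimidine (TOP) motif, through which the mTOR pathway and Larp1 control their translation and stability. Mammalian genomes also hold many processed pseudogenes copied from these messenger RNAs, so that short reads often match several places.

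The start regions are shown because the TOP run is the feature these messages are known for, and the symbol rule did not use it. RefSeq start regions on GRCm38.p6 were matched for 65 of the 86 members, with 77 start sites. The windows run from 60 bases before to 20 bases from the annotated start, in the direction of transcription, and capitals mark the longest run of C or T that reaches within 5 bases of the start. The first 5 members carry runs of 9 bases or more there, and the last 3 carry short ones. The starts are annotated and were not measured in these cells. A longer run further off, as in the Rps25 window, is not marked, so a short marked run does not show that the TOP motif is absent.
Rpl7a (chr2:26910747-26910826, + strand): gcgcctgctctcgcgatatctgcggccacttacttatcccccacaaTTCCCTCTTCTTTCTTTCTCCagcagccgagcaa
Rpl35 (chr2:39005112-39005191, - strand): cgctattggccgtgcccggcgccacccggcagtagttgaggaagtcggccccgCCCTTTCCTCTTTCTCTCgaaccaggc
Rpl4 (chr9:64173327-64173406, + strand): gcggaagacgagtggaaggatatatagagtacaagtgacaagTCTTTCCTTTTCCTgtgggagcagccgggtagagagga
Rplp2 (chr7:141447591-141447670, + strand): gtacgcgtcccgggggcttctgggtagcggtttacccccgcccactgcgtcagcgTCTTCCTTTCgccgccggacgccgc
Rps26 (chr10:128626487-128626566, - strand): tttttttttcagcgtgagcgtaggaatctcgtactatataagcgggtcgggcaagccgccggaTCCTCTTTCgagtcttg
Rpl39 (chrX:37085203-37085282, - strand): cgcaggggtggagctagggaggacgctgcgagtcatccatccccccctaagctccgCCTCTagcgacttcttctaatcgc
Rps25 (chr9:44407654-44407733, + strand): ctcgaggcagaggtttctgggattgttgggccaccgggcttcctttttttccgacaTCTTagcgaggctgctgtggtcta
Rpl23 (chr11:97782420-97782499, - strand): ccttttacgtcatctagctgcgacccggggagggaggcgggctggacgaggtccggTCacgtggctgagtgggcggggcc

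Runs of C or T that reach within 5 bases of the annotated start were counted. Of the members' start sites 32.5% held one of at least 8 bases, as did 9.72% of 32851 start sites of all genes. Runs of at least 6 bases were found in 44.2% and 21.0%. The letters CCGGAA on either strand, the core bound by ETS factors, stood in 46.8% of the members' 300-base promoters, in 28.6% of those of the other genes tested in experiment 4 and in 14.9% of all. AAGATGGC, the core bound by YY1, stood in 10.4% of the members', 4.73% of the other tested genes' and 2.75% of all promoters. GGGCGG, the core bound by Sp1, stood in 59.7% of the members', 62.1% of the other tested genes' and 35.7% of all promoters. A match describes letters and is not a binding site.

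Levels spread over more than 3 orders of magnitude within the family. Rplp1, a stalk protein, was the highest, with a median of 1095 TPM over the 45 libraries (397 to 1969). Rps9 of the small subunit had a median of 509 TPM, and Rpl8 and Rpl4 of the large subunit had medians of 559 and 494 TPM; the ranges of these 4 genes over libraries overlap. At the other end 27 members had a median below 2 TPM. Rps13, a core protein of the small subunit, did not exceed 1.11 TPM, and Rpl36a of the large subunit did not exceed 0.785 TPM. Only 47.6% of the 50-base windows of the median member's transcript were found in no other annotated gene (quartiles 26.1% and 66.7%), against 97.2% for 78 mitochondrial ribosomal protein genes. The median was 58.2% for the 45 members at or above 20 TPM, 24.7% for the 14 between 2 and 20 TPM and 48.3% for the 27 below 2 TPM. How reads that match several places were handled is not given in the sources used here, so the listed levels are uncertain for members with few windows of their own. In addition, 39 of the 86 members have another annotated gene over an exon on either strand, and reads were counted on both strands, so reads of the 2 genes cannot be told apart there; among the members described below these are Rps25 (Ccdc84 and Trappc4), Rps2 (Snhg9), Rpl18 (Sphk2), Rpl15 (Nkiras1), Rpl35 (Arpc5l), Rps10 (Gm15420), Rpl5 (Fam69a), Rpl36al (Gm49383), Rpl22l1 (Gm33051), Rpl7a, Rpl13a, Rpl10 and Rplp2. Gapdh, a glycolytic enzyme with many pseudogenes, was listed at 0.118 to 2.83 TPM.

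**Figure D1:**
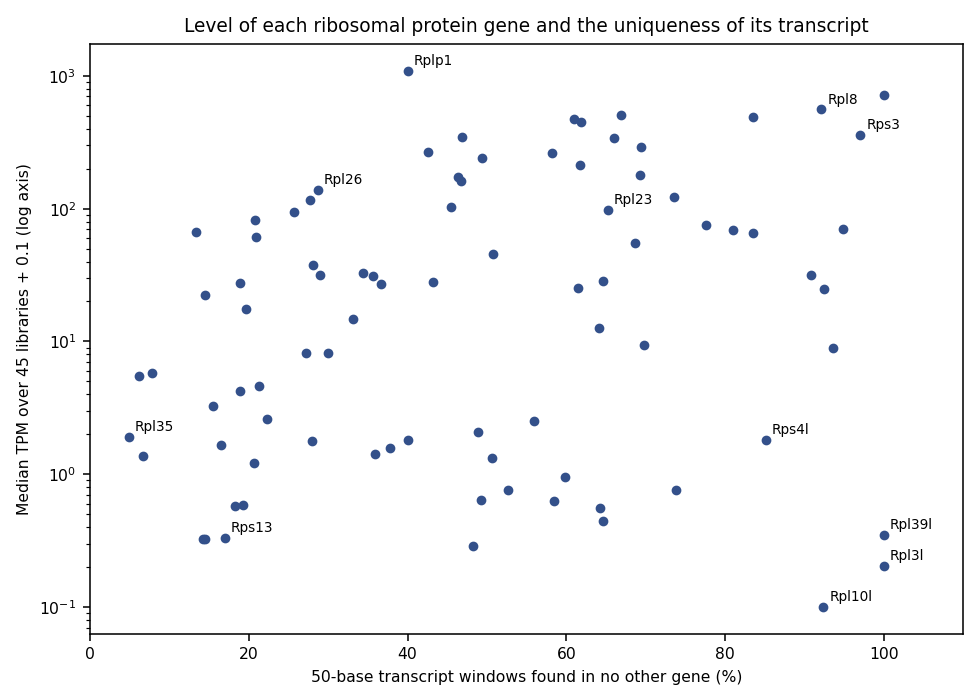
Each point is 1 of the 86 members, with the share of 50-base windows of its transcript found in no other annotated gene on the x axis (%) and its median level over 45 libraries on the y axis (TPM + 0.1, log scale). Rpl8 and Rps3 combine high uniqueness with high levels, Rps13 and Rpl35 combine low uniqueness with low medians, and the duplicate copies Rpl3l, Rpl10l and Rpl39l are unique but near 0.

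Several members have duplicate copies, some of them known from particular tissues. Rpl22l1 and Rps27l, the copies of Rpl22 and Rps27, were listed at medians of 33.0 and 75.9 TPM, and Rpl36al and Rpl7l1, the copies of Rpl36a and Rpl7, at 27.1 and 31.6 TPM. Their main forms Rpl22, Rps27, Rpl36a and Rpl7 stood at 69.6, 1.97, 0.227 and 162 TPM. Where a copy or its main form has few windows of its own, its listed level is uncertain. These values therefore do not show which form a cell uses. Rpl3l, known from muscle, and Rpl10l, known from testis, did not exceed 1.92 and 8.94 TPM, against medians of 22.1 TPM for Rpl3 and 5.70 TPM for Rpl10. Rpl39l, also known from testis, did not exceed 21.5 TPM, against a median of 65.5 TPM for Rpl39, and Rps4l had a median of 1.71 TPM, against 115.8 TPM for Rps4x. The highest values of Rpl39l and Rpl10l both came from the 1 hr control library that stood apart; outside it neither exceeded 1.89 TPM. Rpl35, a large subunit protein, had 22.4 to 60.3 TPM in experiment 4 and 0.180 to 2.65 TPM in experiments 1 to 3, and Rpl3 had 0.0890 to 1.31 TPM in experiment 2 and 12.4 to 39.8 TPM in the other experiments. The experiments were tabulated separately, so these levels are set side by side and not tested.

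Tests ran on log2(TPM + 1) with limma over all genes listed at 1 TPM or more in at least 2 libraries, separately for each experiment, and adjusted p-values (Benjamini-Hochberg) run over all those genes. The filter kept 74, 75, 70 and 74 members in experiments 1 to 4; 66 were tested in every experiment and 5 in none. TPM are shares of a total, so each comparison was also run on TPM divided by a median-ratio factor per library, called median-scaled TPM here. Unless a scale is named, a member is said to rise or fall where it passed an adjusted p of 0.05 on both scales with the same sign. Fold changes are log2 values of TPM + 1, which understates changes of low genes.

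The first question was how the family moved with 4 hr of stimulation. In each of the experiments with that time point the members took a smaller share of the RNA at 4 hr. In experiment 1 their summed level was 4582 TPM at 4 hr, against 9079 and 10470 TPM at 0 hr. In experiment 2 it was 6906 and 7192 TPM at 4 hr, against 9705 and 9839 TPM at 0 hr. In experiment 3 it was 3733 and 4511 TPM at 4 hr, against 6589 and 7639 TPM at 0 hr. The groups did not overlap in any of the 3. On the median-scaled sum the groups did overlap in experiments 1 and 3, at 6668 at 4 hr against 6578 and 7776 at 0 hr in experiment 1. In experiment 2 the direction turned round: the median-scaled sum was 9100 and 9388 at 4 hr, against 7802 and 7851 at 0 hr.

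**Figure D2:**
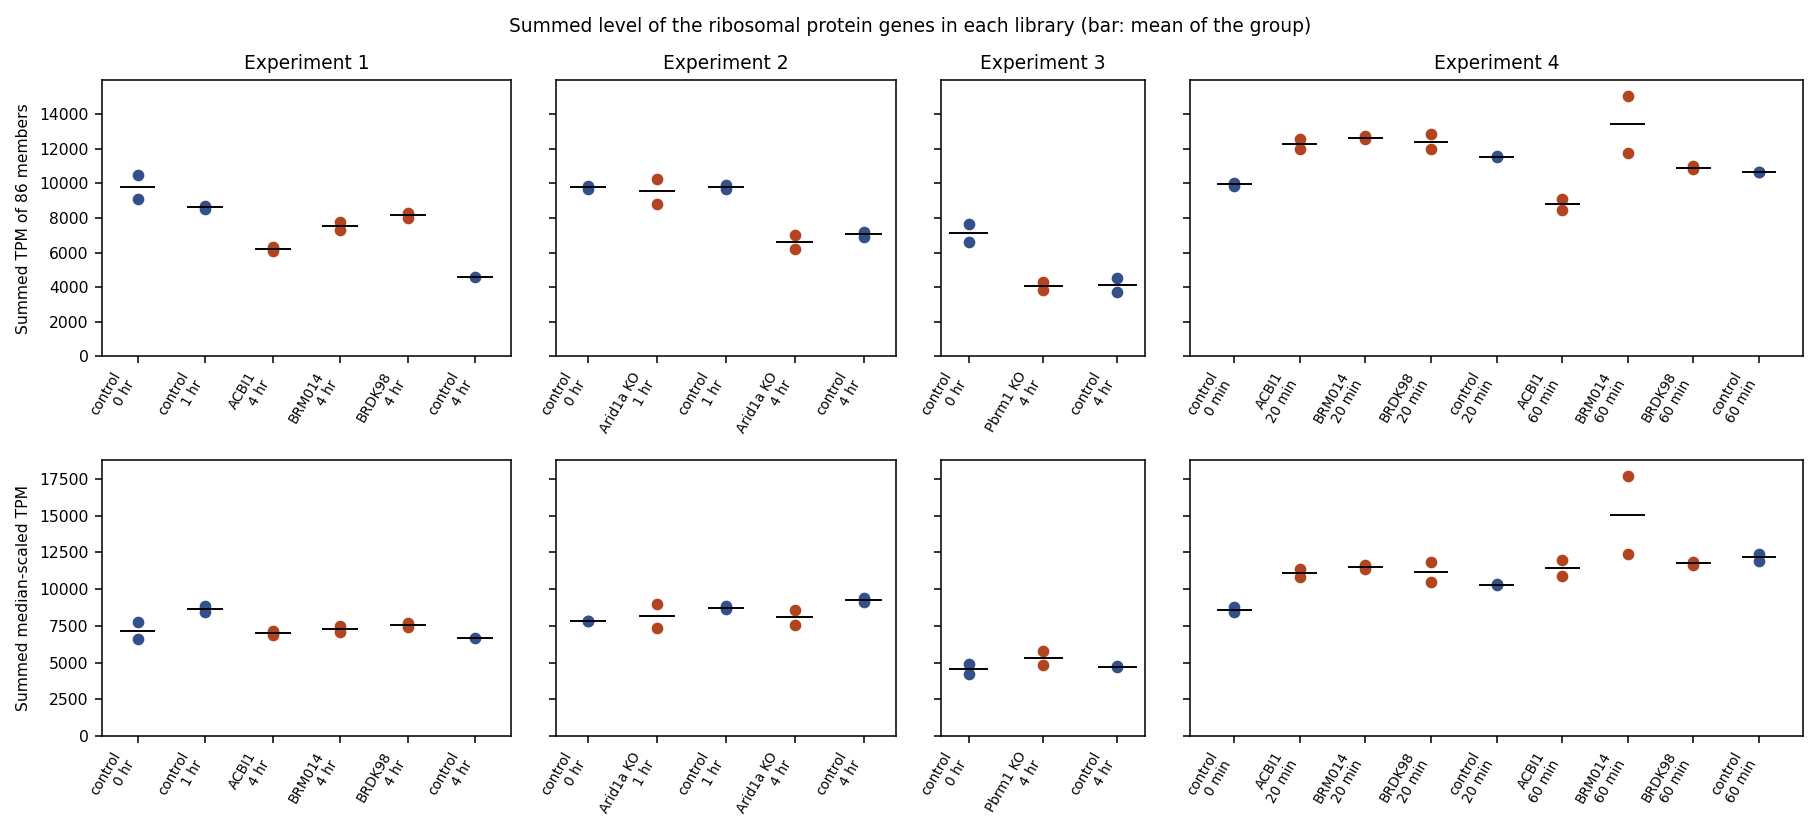
Summed level of the 86 members in each library (points) with the group mean (bar), in TPM (upper row) and in median-scaled TPM (lower row), with perturbed groups in red and controls in blue. On TPM the 4 hr controls sit at 3733 to 7192, below the 0 hr controls of their own experiment, and in experiment 4 the BRM014 library at 15070 stands above its replicate at 11780.

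The fall at 4 hr was shared with most genes. In experiment 1, 53 members were lower and 5 higher on TPM among 74 tested, against 61.2% and 20.1% of all 11531 genes, and the median change was -1.08 for the members and -0.84 for all genes. Called on both scales were 31 lower and 5 higher, against 37.4% and 20.1% of all genes. In experiment 2, 47 members were lower and none higher on TPM among 75, against 62.8% and 17.9% of all 11798 genes, while the median-scaled test gave 4 lower and 9 higher, against 35.5% and 33.9%. The members that fell on both scales there numbered 4, against 35.5% of all genes. In experiment 3, 50 were lower and none higher on TPM among 70, against 61.9% and 16.1% of all 11044 genes, and 8 fell on both scales, against 30.6%. After median scaling the median change of the members was -0.22, 0.12 and -0.04 in experiments 1, 2 and 3, beside -0.06, -0.03 and -0.03 for all genes.

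Within experiment 1 the members did not move alike: their log2 changes on TPM at 4 hr ran from -3.80 to 2.48. Rpl23, a large subunit protein at the face that meets the small subunit, had 520.1 TPM at 4 hr, against 111.0 and 77.0 TPM at 0 hr, with 165 and 130 TPM at 1 hr. The 4 hr library lay above all the others, and the change was 2.48 ± 0.20 (SE; adjusted p = 2.11e-06 by limma). Rps6, the small subunit protein phosphorylated by S6 kinases, had 8.54 TPM at 4 hr, against 3.87 and 4.52 TPM at 0 hr, a change of 0.88 ± 0.23 (adjusted p = 0.00434 by limma). Rpl35a had 88.8 TPM at 4 hr, against 57.6 and 61.1 TPM at 0 hr, and rose by 0.57 ± 0.12. These were 3 of the 5 members that rose, and the others did not meet the rule for naming.

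The falls of experiment 1 at 4 hr were led by Rpl37, Rps4x, Rps14 and Rpl36al. Rpl37, a zinc-binding protein of the large subunit, had 1.67 TPM at 4 hr, against 25.1 and 52.0 TPM at 0 hr (-3.80 ± 0.44, adjusted p = 6.64e-05 by limma). Rps4x, the X-linked small subunit protein, had 20.7 TPM at 4 hr, against 203 and 152 TPM at 0 hr (-3.03 ± 0.23). Rps14, a small subunit protein of the platform, had 67.2 TPM at 4 hr, against 487 and 489 TPM at 0 hr (-2.84 ± 0.14). For all 3 the single 4 hr library lay far below both 0 hr libraries. Rpl36al had 5.59 TPM at 4 hr, against 40.6 and 46.7 TPM at 0 hr (-2.76 ± 0.14). Of 29 small subunit members tested 14 fell and 2 rose, with a median change of -1.27, and of 45 large subunit members 17 fell and 3 rose, with a median of -0.99.

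Several of the most abundant members and of the duplicate copies also fell in experiment 1. Rplp0, the base of the stalk, had 102 TPM at 4 hr, against 331 and 382 TPM at 0 hr (-1.79 ± 0.11, adjusted p = 1.53e-07 by limma). Its partners Rplp1 and Rplp2 had 397 and 123 TPM at 4 hr; at 0 hr Rplp1 had 504 and 1030 TPM and Rplp2 had 103 and 219 TPM, so that Rplp2 overlapped and neither passed the test. Rps9 and Rpl8 fell, by changes of -1.69 ± 0.13 and -1.46 ± 0.15. Rpl22l1 had 6.85 TPM at 4 hr, against 42.2 and 33.0 TPM at 0 hr (-2.29 ± 0.20), and Rps27l had 24.8 TPM at 4 hr, against 75.1 and 81.2 TPM at 0 hr (-1.61 ± 0.15). Rpl22, the main form beside Rpl22l1, was lower on TPM (-0.66 ± 0.15) and not on median-scaled TPM (0.31).

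In experiments 2 and 3 these members had other values. Rpl23 had 44.2 and 32.1 TPM at 4 hr, against 56.9 and 56.5 TPM at 0 hr in experiment 2 (-0.57 ± 0.24, adjusted p = 0.0571 by limma), and 182 and 266 TPM at 4 hr, against 179 and 169 TPM at 0 hr in experiment 3 (0.33 ± 0.19, adjusted p = 0.133). On median-scaled TPM Rpl23 was higher at 4 hr in experiment 3, by 1.17 ± 0.15. Rps14 had 353 and 329 TPM at 4 hr, against 446 and 426 TPM at 0 hr in experiment 2, and 120 and 123 TPM at 4 hr, against 201 and 243 TPM at 0 hr in experiment 3. In experiment 2 the member named by the rule was Rpl5, which with Rpl11 and 5S rRNA can bind Mdm2, at 3.48 and 2.39 TPM at 4 hr, against 8.83 and 6.66 TPM at 0 hr (-1.16 ± 0.18, adjusted p = 0.000166). In experiment 3 Rps2 (-1.38 ± 0.17) and Rpl7a (-1.31 ± 0.23) were among those that fell. Rps2, a small subunit protein at the mRNA entry, had 23.0 and 25.1 TPM at 4 hr, against 57.4 and 72.0 TPM at 0 hr in experiment 3, with no overlap.

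Of the 66 members tested in all 3 experiments, 4 fell on both scales in at least 2 of them (6.06%), against 33.3% of 10531 genes. None fell in all 3, against 23.4% of those genes, and none rose in at least 2, against 17.3%. The 4 included Rpl18, Rpl7a and Rps18. Across the 66 members tested in these experiments, the median-scaled changes of experiments 1 and 3 had a Pearson r of 0.49, those of experiments 1 and 2 an r of 0.12 (-0.21 over the 34 members with a mean of at least 20 TPM in each) and those of experiments 2 and 3 an r of 0.37. These are descriptions over genes of 1 family, which share the libraries' depth and composition. The authors' deposited tables list 11 members as higher and 27 as lower at 4 hr in experiment 1, 12 and 1 in experiment 2, and 4 and 1 in experiment 3, at an adjusted p below 0.05. Over all listed genes they give 17.2% and 15%, 16.2% and 14%, and 14.3% and 11.5% in the same order. Experiment 2 used LPS and experiments 1 and 3 lipid A, with different genotypes, so the agent, the genotype and the experiment cannot be told apart.

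**Figure D3:**
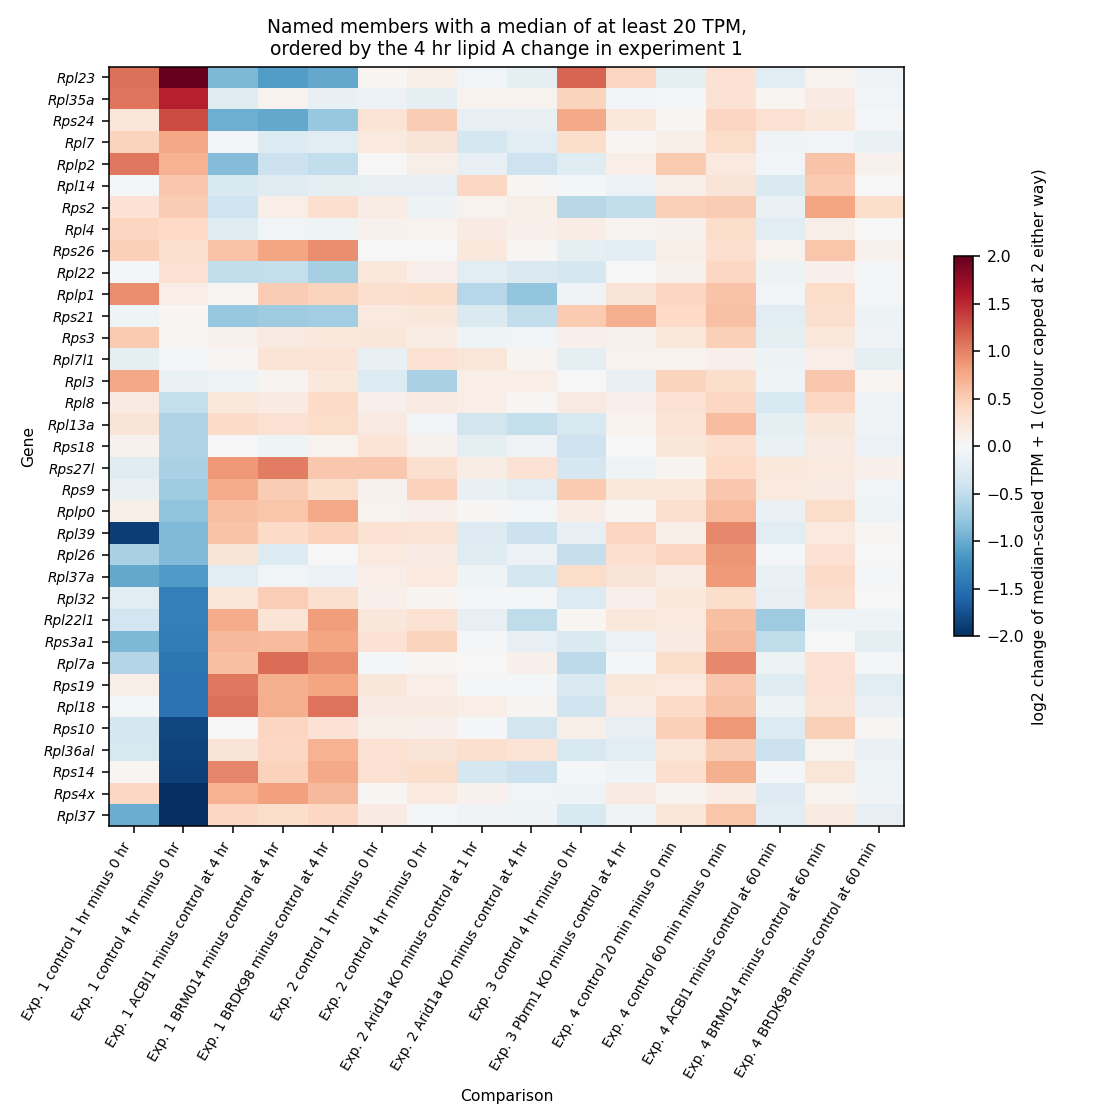
Log2 change of median-scaled TPM + 1 (colour, capped at 2 either way) for 35 members with a median of at least 20 TPM that the text names (rows, ordered by the 4 hr change of experiment 1) in 16 comparisons (columns, each a group minus the one it is set against). Rpl23, Rpl35a and Rps24 at the top were higher at 4 hr of experiment 1, Rps14, Rps4x and Rpl37 at the bottom were lower, and the column for 60 min of lipid A in experiment 4 is above 0 for nearly every member.

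At 1 hr of experiment 1 members were also called in both directions. On TPM 29 members were lower and 3 higher, against 53.1% and 9.9% of all genes; on median-scaled TPM 8 were lower and 14 higher, against 19.2% and 21.8%. On both scales 8 fell and 3 rose, against 19.2% and 9.9%. Rpl39, a very small protein that lines the peptide exit tunnel, had 18.4 and 14.1 TPM at 1 hr, against 74.1 and 98.1 TPM at 0 hr (-2.34 ± 0.20, adjusted p = 1.64e-05 by limma). Rpl37a (-1.46 ± 0.27), Rps3a1 (-1.34 ± 0.08) and Rpl29 (-1.10 ± 0.17) fell as well, and Rpl23 (0.66 ± 0.17) and Rpl35a (0.63 ± 0.09) rose. Leaving out 1 library at a time, the number of members called on TPM ran from 25 to 39. Without the library that held stromal markers 5 were higher and 29 lower.

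In experiment 2 few members were called at 1 hr: 3 were lower and 2 higher on TPM, against 30.8% and 13.7% of all genes. Rps27l, the copy of Rps27 that p53 can induce, had 173 and 180.0 TPM at 1 hr, against 128 and 142 TPM at 0 hr (0.38 ± 0.13, adjusted p = 0.0347 by limma). The 2 groups did not overlap. Leaving out any 1 of the 4 libraries left 0 to 2 members called on TPM: 0 without 0 hr replicate 1, 2 without 0 hr replicate 2, 1 without 1 hr replicate 1 and 2 without 1 hr replicate 2.

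The shortest times were sampled in experiment 4. At 20 min of lipid A no member passed the limma test on either scale, against 0.831% higher and 0.537% lower of all 11549 genes on TPM, while the summed level was 11520 and 11590 TPM at 20 min, against 9849 and 10050 TPM at 0 min. At an unadjusted p below 0.05 there were 21 members higher and 2 lower on TPM, against 8.35% and 9.57% of all genes; voom on recovered reads also called none, and without 0 min replicate 2 the TPM test called 8. The authors' deposited table lists 13 of the 86 members as higher and none as lower at 20 min at an adjusted p below 0.05, against 0.76% and 1.67% of all 25124 genes. At 60 min 8 members were higher and 6 lower on TPM, against 7.47% and 54.6% of all genes, and the median change was 0.03 for the members and -0.33 for all genes. On median-scaled TPM 35 of the 74 members were higher and none lower, against 18.9% and 18.1% of all genes, with a median change of 0.39 for the members and 0.00 for all genes. The authors' deposited table lists 35 members as higher and none as lower at 60 min, against 6.73% and 6.24% of all genes. Of 77 mitochondrial ribosomal protein genes 9 were higher and 11 lower on median-scaled TPM. The TPM count of 14 members fell to 9 without 0 min replicate 1, to 3 without 60 min replicate 1 and to 9 without 60 min replicate 2.

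Called on both scales at 60 min were 8 members, all higher, against 7.47% of all genes. Rpl7a, the large subunit protein with the longest C or T run shown above, had 29.6 and 24.5 TPM at 60 min, against 15.5 and 20.3 TPM at 0 min (0.58 ± 0.12, adjusted p = 0.00139 by limma). Rpl39 had 67.6 and 65.5 TPM at 60 min, against 50.6 and 38.9 TPM at 0 min (0.57 ± 0.18, adjusted p = 0.0146). Rpl35 had 42.4 and 37.0 TPM at 60 min, against 31.7 and 22.4 TPM at 0 min (0.56 ± 0.16, adjusted p = 0.00776). For each of the 3 the 60 min libraries lay above both 0 min libraries. Rpl26, another exit tunnel protein, rose by 0.49 ± 0.14, and Rplp0, the stalk base, by 0.23 ± 0.07. At the nearest time of experiment 1, 1 hr, Rpl39 fell.

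Members were also described by the length of the C or T run near the annotated start, with no test. Runs further off are not counted, so this split does not separate messages with the TOP motif from those without it. At 60 min of experiment 4 the median change on median-scaled TPM was 0.35 for 24 members with a run of at least 8 bases and 0.48 for 27 members with a run below 6. At 4 hr of experiment 1 it was -0.17 and -0.31.

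The second question was what the 3 compounds did to the family at 4 hr of lipid A. In experiment 1 the summed level was 6120 and 6308 TPM with ACBI1, 7752 and 7296 TPM with BRM014 and 8031 and 8287 TPM with BRDK98, against 4582 TPM in the 4 hr control. All 6 treated libraries lay above the control, whose place rests on 1 library. On the median-scaled sum they spanned 6872 to 7712, against 6668.

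With ACBI1, 29 members were higher and 4 lower on TPM, against 34.5% and 13.5% of all genes; 14 rose and 4 fell on both scales, against 20% and 13.5%. With BRM014, 40 were higher and 4 lower on TPM, against 48.3% and 16.4%; 18 rose and 4 fell on both, against 26.4% and 16.4%. With BRDK98, 42 were higher and none lower on TPM, against 49.6% and 12.4%; 18 rose and none fell on both, against 22% and 12.4%. On median-scaled TPM alone 14 were higher and 8 lower with ACBI1, against 20.1% and 25.6%; 18 and 9 with BRM014, against 26.4% and 30.3%; and 18 and 7 with BRDK98, against 22% and 29.9%. In percent, the members that rose on both scales were 18.9% with ACBI1 and 24.3% with BRM014 and with BRDK98. The 3 comparisons share the single control library.

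Among the members that rose, several had fallen most at 4 hr without a compound. Rps14 had 166 and 175 TPM with ACBI1, 139 and 138 TPM with BRM014 and 159 and 199 TPM with BRDK98, against 67.2 TPM in the control. Rpl18 had 48.9 and 55.0 TPM with ACBI1, 46.5 and 46.4 TPM with BRM014 and 60.5 and 64.2 TPM with BRDK98, against 18.4 TPM in the control. All treated libraries were above the control for both genes and below the 0 hr libraries, which had 487 and 489 TPM of Rps14 and 108 and 101 TPM of Rpl18. For Rpl18 the changes were 1.44 ± 0.11 with ACBI1, 1.29 ± 0.11 with BRM014 and 1.70 ± 0.11 with BRDK98 (limma; adjusted p = 7.1e-06 with ACBI1 and 1.3e-06 with BRDK98). The control that is low against the compounds is the same library that is low against 0 hr, so these are not independent results.

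Rps25, a small subunit protein needed for some internal initiation, had 8.10 and 7.45 TPM with ACBI1, 8.22 and 6.36 TPM with BRM014 and 7.27 and 5.84 TPM with BRDK98, against 0.530 TPM in the control and 6.16 and 8.79 TPM at 0 hr. Only the 4 hr control was low. The change was 2.52 ± 0.36 with ACBI1 and 2.43 ± 0.36 with BRM014. 

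Rps26, which sits at the mRNA exit of the small subunit, had 392 and 420.1 TPM with ACBI1, 576 and 521 TPM with BRM014 and 622 and 646 TPM with BRDK98, against 211 TPM in the control. Unlike the genes above, the treated libraries also exceeded the 0 hr libraries, at 348 and 322 TPM. The change with BRDK98 was 1.58 ± 0.10 (adjusted p = 1.64e-06 by limma). Rps27l had 67.2 and 52.0 TPM with ACBI1, 70.4 and 82.6 TPM with BRM014 and 58.1 and 56.6 TPM with BRDK98, against 24.8 TPM in the control, and rose with each, by 1.58 ± 0.15 with BRM014. Rps19, the gene most often mutated in Diamond-Blackfan anaemia in humans, rose by 1.39 ± 0.18 with ACBI1 and 1.42 ± 0.18 with BRDK98. Rplp0 rose by 0.96 ± 0.11 with ACBI1, 1.13 ± 0.11 with BRM014 and 1.41 ± 0.11 with BRDK98. Rpl7a rose by 1.64 ± 0.18 with BRM014 and 1.52 ± 0.18 with BRDK98, and Rps4x by 1.37 ± 0.23 with BRM014.

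**Figure D4:**
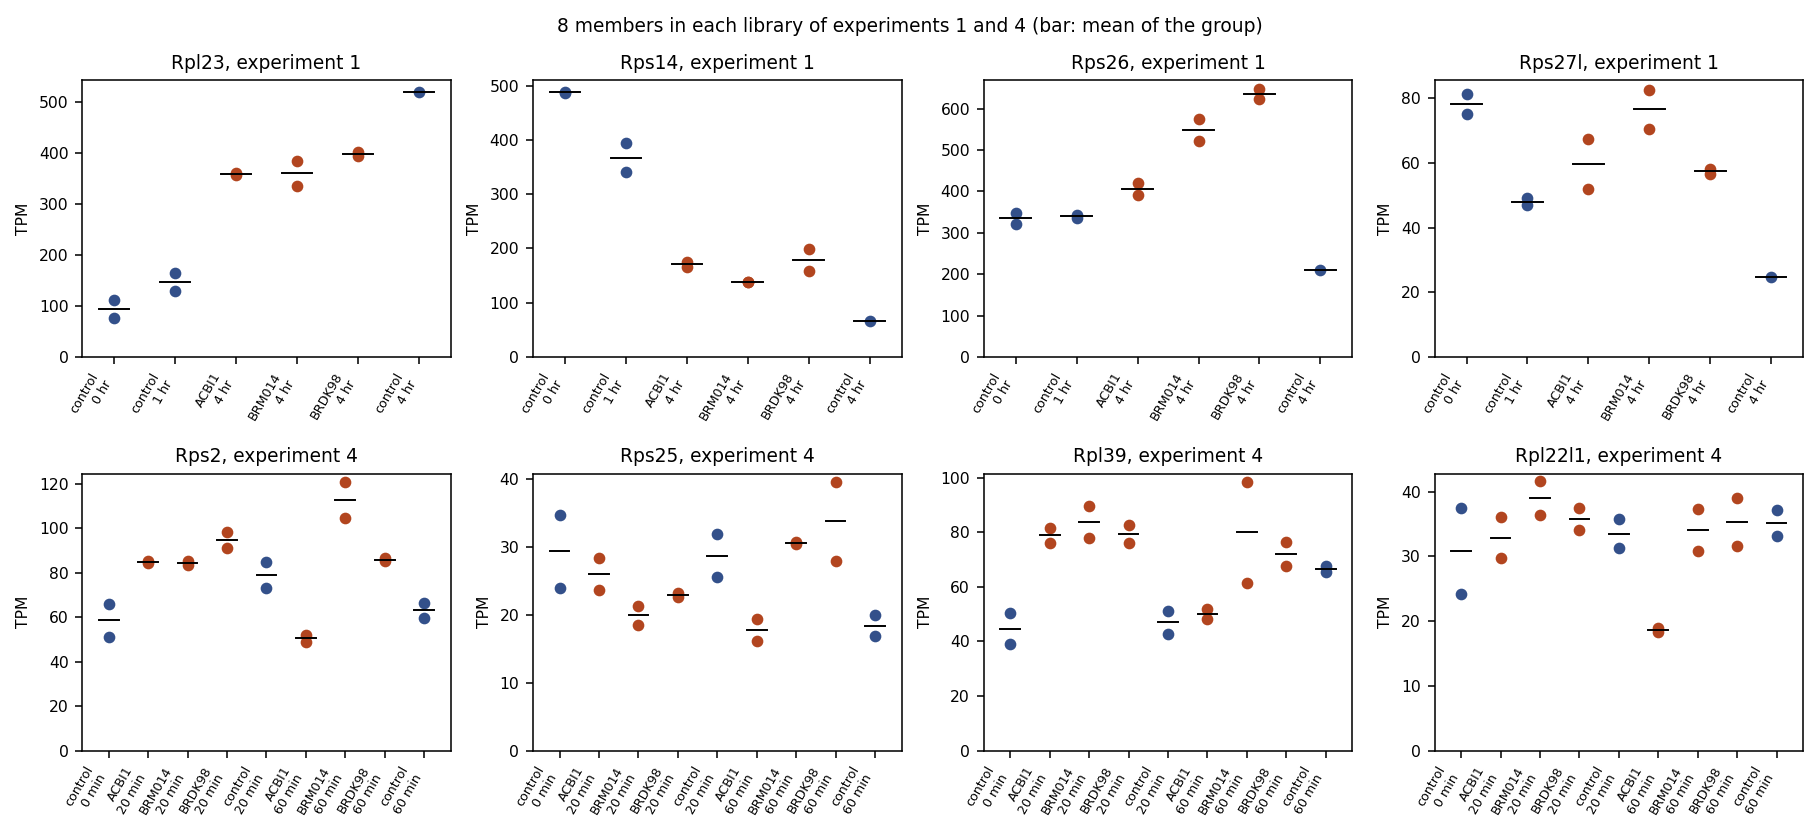
Level (TPM) of 8 members in each library (points) with the group mean (bar), for 4 members in experiment 1 (upper row) and 4 in experiment 4 (lower row), with treated groups in red and controls in blue. In experiment 1 the 4 hr control is the highest for Rpl23, at 520.1 TPM, and the lowest for Rps14, Rps26 and Rps27l, and in experiment 4 Rpl22l1 is lowest with ACBI1 at 60 min, at 18.3 and 18.9 TPM.

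Few members fell with a compound, and Rpl23 and Rps6, which had risen at 4 hr, were among them. Rpl23 had 356 and 361 TPM with ACBI1, 384 and 336 TPM with BRM014 and 401 and 394 TPM with BRDK98, against 520.1 TPM in the control. It fell with BRM014 (-0.53 ± 0.20, adjusted p = 0.0425 by limma), while on TPM the adjusted p was 0.0539 with ACBI1 and 0.125 with BRDK98. Rps6 fell with ACBI1 (-0.82 ± 0.23) and BRM014 (-0.59 ± 0.23), and Rps24 fell with both (-0.61 ± 0.15 and -0.45 ± 0.15 in that order). Rps21, which had 67.0 TPM in the control, fell with ACBI1 to 47.6 and 53.6 TPM (-0.40 ± 0.13).

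The 3 compounds were compared with each other at 4 hr, where every group had 2 libraries. BRM014 against ACBI1 gave 14 members higher and 2 lower on TPM, against 30.6% and 14.1% of all genes, and 5 and 2 on both scales, against 16.2% and 14.1%. BRDK98 against ACBI1 gave 31 higher and none lower on TPM, against 37.3% and 15.4%, and 4 and none on both, against 21.2% and 15.4%. BRDK98 against BRM014 gave 13 higher and 3 lower on TPM, against 25.7% and 22.1%, and 5 and 3 on both, against 23.2% and 22.1% (25.6% lower on median-scaled TPM alone). Without BRM014 replicate 1 the first of these TPM counts was 10 in place of 16; the second was 18 and 17 without ACBI1 replicates 1 and 2 and 19 and 16 without BRDK98 replicates 1 and 2; the third was 10 and 6 without BRM014 replicates 1 and 2 and 8 and 5 without BRDK98 replicates 1 and 2. Rps2 had 85.1 and 71.7 TPM with BRM014 and 94.5 and 95.6 TPM with BRDK98, against 46.8 and 46.1 TPM with ACBI1. It was higher than with ACBI1 by 0.74 ± 0.10 with BRM014 (adjusted p = 0.000274 by limma) and by 1.02 ± 0.10 with BRDK98 (adjusted p = 1.82e-05).

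Other members separated BRM014 from the other compounds. Rpl15, a core protein of the large subunit, had 13.4 and 14.5 TPM with BRM014, against 8.71 and 8.55 TPM with ACBI1 (0.64 ± 0.11), and 8.50 and 7.54 TPM with BRDK98, against the same BRM014 libraries (-0.73 ± 0.11). Rpl26 and Rps14 were lower with BRM014 than with ACBI1 (-0.30 ± 0.09 and -0.30 ± 0.11 in that order) and higher with BRDK98 than with BRM014 (0.34 ± 0.09 and 0.36 ± 0.11). Rpl22l1 was higher with BRDK98 than with BRM014 by 0.62 ± 0.16, and Rps27l was lower by 0.41 on that scale (SE 0.12).

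The third question was what the compounds did earlier, in experiment 4. At 20 min few members passed: none with ACBI1, 1 higher with BRM014 and 2 higher with BRDK98 on TPM, against 0.121%, 0.0952% and 0.606% of all genes called higher. At an unadjusted p below 0.05 there were 10, 17 and 16 higher with ACBI1, BRM014 and BRDK98 and 0, 3 and 1 lower, against 3.36%, 5% and 7.83% of all genes higher and 2.49%, 4.19% and 3.76% lower; voom on recovered reads called 0, 1 and 4. Without any 1 library the TPM test called 0 with BRM014 and at most 1 with BRDK98. Rps10 was the member called on both scales, with 119.9 and 108 TPM with BRDK98, against 64.4 and 73.9 TPM in the 20 min control (0.71 ± 0.13, adjusted p = 0.0139 by limma). The authors' deposited table lists 10, 22 and 9 members as higher at 20 min with ACBI1, BRM014 and BRDK98 and none as lower, against 0.426%, 0.919% and 0.784% of all genes higher and 1.03%, 1.91% and 2.09% lower.

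At 60 min the compounds parted on TPM. With ACBI1, 37 members were lower and none higher on TPM, against 27.7% and 11.6% of all genes, and the summed level was 8460 and 9123 TPM, against 10650 and 10650 TPM in the 60 min control. On both scales 7 fell and none rose, against 13.7% and 11.6%. With BRM014, 33 were higher and none lower on TPM, against 20.7% and 13.6%, and the summed level was 15070 and 11780 TPM, against the same control. On both scales 19 rose and none fell, against 16.8% and 13.4%. With BRDK98, 3 were higher and none lower on TPM, against 7.79% and 5.56%, and 2 rose on both, against 6.05%. The median change of the members on median-scaled TPM was -0.14 with ACBI1, 0.29 with BRM014 and -0.03 with BRDK98, beside 0.01 for all genes in each. The median-scaled sum was 10920 and 11990 with ACBI1 and 17710 and 12410 with BRM014, against 12400 and 11900 in the 60 min control. On that scale ACBI1 overlapped the control, and BRM014 replicate 2 lay beside control replicate 1.

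The BRM014 count at 60 min rests in part on 1 library. Replicate 1 had 15070 TPM, or 1.05% of its 16687138 exonic reads in members, and replicate 2 had 11780 TPM, or 0.75% of 18769238. Without replicate 1, 13 members were higher on TPM with a median change of 0.12; without replicate 2, 59 were higher with a median of 0.49; without either control library 16 were. For ACBI1 the count on TPM was 21 and 22 without 60 min control replicates 1 and 2 and 16 without ACBI1 replicate 1, and for BRDK98 it was 0 without control replicate 1 or BRDK98 replicate 2. The authors' deposited table lists 2 members as higher and none as lower with BRM014 at 60 min, against 1.75% and 2.96% of all genes. With ACBI1 it lists 1 as higher and 5 as lower, against 7.99% and 5.09%. With BRDK98 it lists 2 as higher and none as lower, against 2.38% and 3.43%.

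Rpl22l1, whose product can replace Rpl22 in ribosomes, led the falls with ACBI1 at 60 min. It had 18.3 and 18.9 TPM with ACBI1, against 33.1 and 37.2 TPM in the control, a change of -0.88 ± 0.18 (adjusted p = 0.00161 by limma). Rps3a1 had 29.9 and 26.7 TPM with ACBI1, against 46.5 and 46.3 TPM in the control (-0.70 ± 0.12, adjusted p = 0.000596). Rpl36al had 15.9 and 19.3 TPM with ACBI1, against 26.5 and 28.4 TPM in the control (-0.62 ± 0.13, adjusted p = 0.00213). None of these groups overlapped.

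With BRM014 the named rises were Rps2, Rps25, Rplp2 and Rpl10. Rps2 had 120.9 and 104 TPM with BRM014, against 59.5 and 66.4 TPM in the control (0.83 ± 0.11, adjusted p = 7.97e-05 by limma). Rps25 had 30.5 and 30.6 TPM with BRM014, against 16.8 and 20.0 TPM in the control (0.71 ± 0.19, adjusted p = 0.0111). Rpl10, which joins the large subunit last, had 9.16 and 8.72 TPM with BRM014, against 4.95 and 6.20 TPM in the control (0.60 ± 0.16). For Rps25 and Rpl10 both BRM014 libraries were close to each other, unlike the summed level. The stalk rose together with BRM014: Rplp0 by 0.40 ± 0.07, Rplp1 by 0.40 ± 0.09 and Rplp2 by 0.60 ± 0.15. With BRDK98 the named member was Rps25, with 27.9 and 39.6 TPM, against the same control (0.83 ± 0.19, adjusted p = 0.00874).

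Some of these effects differed between 60 and 20 min when the difference itself was tested. For ACBI1 the effect was lower at 60 min for 33 members (44.6%) and higher for none on TPM, against 17.6% and 9.38% of all genes. On both scales 5 were lower (6.76%), against 9.12%. For BRM014 the effect was higher at 60 min for 10 members on TPM (13.5%), against 8.62%, and for 5 on both (6.76%), against 6.85%. For BRDK98 it was higher for 1 member, Rps25, against 4.12% on TPM. Without 1 library these counts on TPM ran from 13 (without ACBI1 20 min replicate 2) to 28, from 4 (without 20 or 60 min control replicate 2) to 29 (without BRM014 60 min replicate 2) and from 0 to 1. Rpl39 had 48.3 and 52.0 TPM with ACBI1 at 60 min, against 67.6 and 65.5 TPM in its control, and 81.4 and 76.3 TPM with ACBI1 at 20 min, against 51.2 and 42.9 TPM in its control. At 20 min Rpl39 was also above that control with BRM014 and BRDK98, by 0.82 ± 0.18 and 0.75 ± 0.18, beside 0.74 ± 0.18 with ACBI1. None of these 20 min changes was called, and they share the control libraries. The time differences of Rpl39 with BRM014 and BRDK98 were -0.60 and -0.64, and were not called.

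The compounds were also compared directly at 60 min; these 3 comparisons were added after the results above had been seen. BRM014 against ACBI1 gave 67 members higher and none lower on TPM, against 43.1% and 19.6% of all genes, and 50 and none on both scales, against 28.2% and 19.6%. BRDK98 against ACBI1 gave 47 higher and none lower on TPM, against 43.1% and 14.3%, and 9 and none on both, against 20.7% and 14.3%. BRDK98 against BRM014 gave 20 lower and none higher on TPM, against 12.7% and 15.2%, and 18 and none on both, against 12.3% and 14.4%. For BRM014 against ACBI1, counts without 1 library ran from 59 to 70. For BRDK98 against ACBI1 the count was 25 without ACBI1 replicate 1 and 31 without BRDK98 replicate 2. For BRDK98 against BRM014 it was 4 without BRM014 replicate 1, 48 without BRM014 replicate 2, and 11 and 6 without BRDK98 replicates 1 and 2. Rps2 had 120.9 and 104 TPM with BRM014 and 86.4 and 85.0 TPM with BRDK98, against 48.8 and 52.2 TPM with ACBI1. Rpl10 had 9.16 and 8.72 TPM with BRM014, against 2.72 and 3.04 TPM with ACBI1 (1.36 ± 0.16, adjusted p = 8.95e-06 by limma). Rpl14 and Rpl29 differed in the same direction by 1.01 ± 0.18 and 0.98 ± 0.14.

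On TPM the order of the compounds was not the same at 4 hr and at 60 min. At 4 hr the summed TPM was highest with BRDK98 and lowest with ACBI1 among the treated groups, and at 60 min highest with BRM014 and lowest with ACBI1. On the median-scaled sum the order was less clear. At 4 hr BRM014 (7524 and 7108) overlapped both ACBI1 (6872 and 7152) and BRDK98 (7442 and 7712). At 60 min ACBI1 (10920 and 11990) overlapped BRDK98 (11870 and 11630). The 2 times come from different experiments and were not tested against each other.

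**Figure D5:**
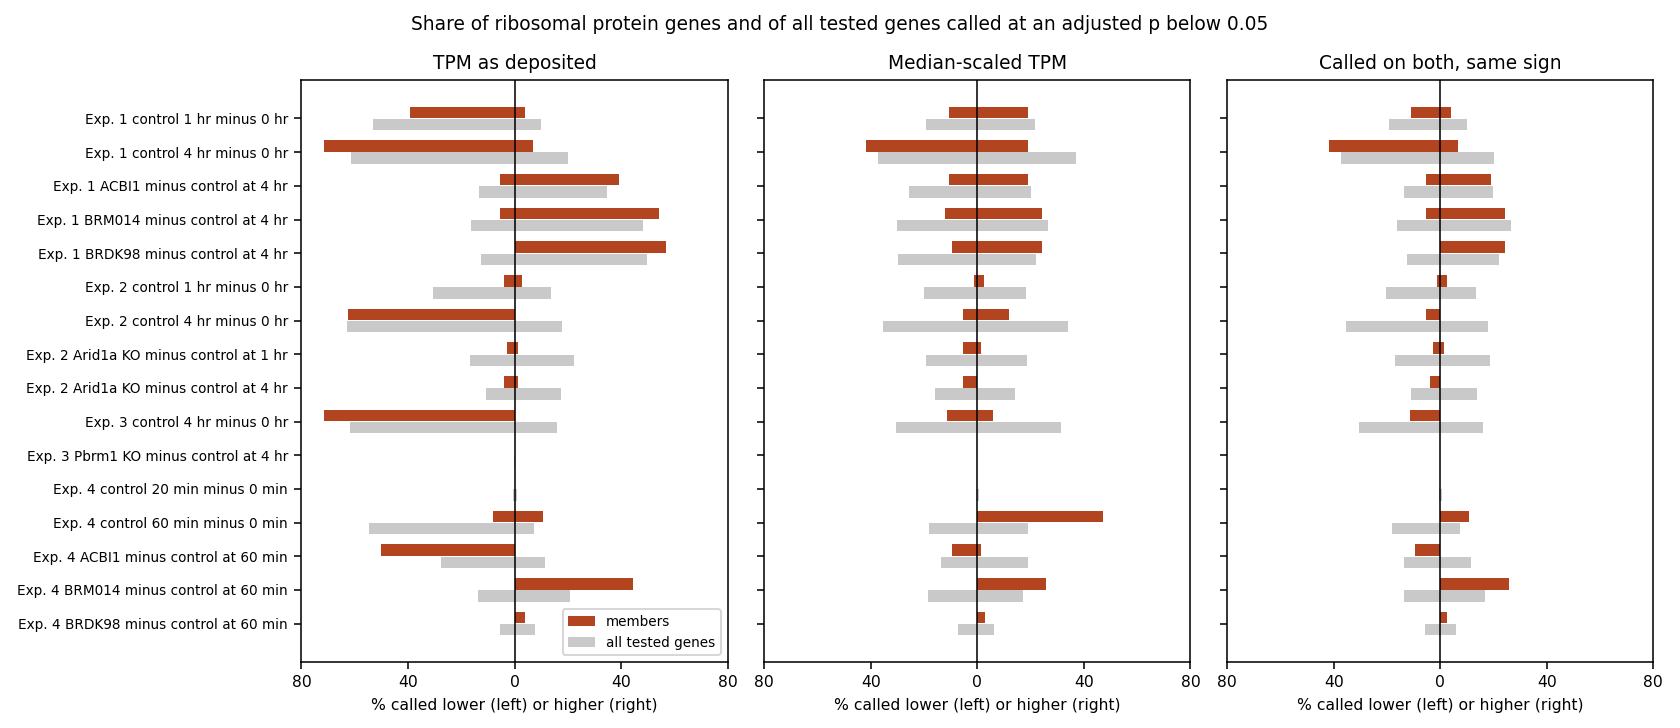
Share of the tested members (red) and of all tested genes (grey) called higher (to the right of 0) or lower (to the left) at an adjusted p below 0.05 in 16 comparisons, on TPM, on median-scaled TPM and on both with the same sign. On TPM the bars for lower at 4 hr of experiments 1 to 3 are long for members and for all genes (53 of 74, 47 of 75 and 50 of 70 members). The members' bars are the longer for higher on median-scaled TPM at 60 min (35 of 74), for lower on TPM with ACBI1 (37) and for higher on TPM with BRM014 (33), and are the shorter in both directions on both scales at 4 hr of experiments 2 and 3.

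Loss of Arid1a, the subunit that defines the canonical BAF form of SWI/SNF, was followed by calls in few members. At 1 hr 1 member was higher and 2 lower on TPM among 75 in Arid1a-/- cells, against 22.4% and 16.9% of all genes. At 4 hr 1 was higher and 3 lower on TPM, against 17.4% and 10.8%, and 3 fell on both scales, against 10.8%. The summed level was 10270 and 8811 TPM in Arid1a-/- cells, against 9693 and 9890 TPM in Arid1af/f cells at 1 hr, and 6223 and 7029 TPM in Arid1a-/- cells, against 6906 and 7192 TPM in Arid1af/f cells at 4 hr. The groups overlapped at both times, while on the median-scaled sum the 4 hr groups did not, at 7590 and 8611 in Arid1a-/- cells, against 9100 and 9388 in Arid1af/f cells. Rpl13a, known in human cells as part of a complex that silences inflammatory mRNAs, had 107 and 138 TPM in Arid1a-/- cells, against 152 and 163 TPM in Arid1af/f cells at 4 hr (-0.37 ± 0.12, adjusted p = 0.0365 by limma). Rps14 had 261 and 283 TPM in Arid1a-/- cells, against 353 and 329 TPM in Arid1af/f cells at 4 hr (-0.33 ± 0.11, adjusted p = 0.0458). Rpl7 had 100.3 and 105 TPM in Arid1a-/- cells, against 122 and 130.0 TPM in Arid1af/f cells at 1 hr (-0.29 ± 0.10, adjusted p = 0.0365). The effect of Arid1a loss differed between 4 and 1 hr for no member, against 8.56% higher and 8.24% lower of all genes; 1 was higher and 2 lower at an unadjusted p below 0.05, against 16.1% and 14.5%, and voom called none. The 1 hr count rests on the Arid1a-/- libraries: without replicate 1 the TPM test called 0 higher and 10 lower, without replicate 2 it called 16 higher and 3 lower, and without Arid1af/f replicate 2 it called 1. Without Arid1a-/- replicate 2 at 1 hr, 7 members differed between the times. At 4 hr the count was 2 without either Arid1a-/- library or Arid1af/f replicate 2.

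Other genes of translation were called as well at 1 hr. In Arid1a-/- cells at that time 18.7% of all genes rose and 16.8% fell. Of 29 initiation factors 14 rose and 1 fell, and of 9 genes listed under elongation 5 rose and none fell. Eif3b, a scaffold of the initiation complex, rose by 1.22 ± 0.09 and Eif4a1, the helicase of the cap complex, by 0.89 ± 0.11. Eef1e1, part of the tRNA synthetase complex, rose by 1.56 ± 0.16, Eef1g by 0.68 ± 0.09, and 7 of 15 regulators of TOP messages rose, among them Rptor (0.82 ± 0.10), which brings substrates to mTOR. Of 76 mitochondrial ribosomal protein genes 29 rose and 1 fell, against 18.7% and 16.8% of all genes on both scales.

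Loss of Pbrm1, a subunit of the PBAF form, called no member on either scale among 70, and 0% of all genes higher and 0.0634% lower on TPM. The summed level was 3822 and 4319 TPM in Pbrm1-/- cells, against 3733 and 4511 TPM in Pbrm1f/f cells at 4 hr. The authors' deposited table likewise lists none of the 86. With 7 of 11044 genes called by limma, few genes of any kind differed, and a miss does not show that levels were equal. At an unadjusted p below 0.05 there was 1 member higher and 1 lower on TPM, against 1.96% and 8.44% of all genes; voom called none, and without Pbrm1f/f 4 hr replicate 1 the test called 3.

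Other genes of the cytosolic ribosome and of translation moved as follows with the compounds. Rack1, a small subunit scaffold outside the symbol rule, fell at 4 hr of experiment 1 (-2.10 ± 0.10) and was higher with each compound, by 0.99 ± 0.10 with ACBI1, 1.13 ± 0.10 with BRM014 and 1.32 ± 0.10 with BRDK98. With BRM014 at 60 min 16.8% of all genes rose and 13.4% fell. Of 9 genes listed under elongation 7 rose and none fell, and of 29 initiation factors 9 rose and 1 fell. Tpt1 rose by 0.95 ± 0.26 and Eif1, the start codon scanning factor, by 1.09 ± 0.08. With ACBI1 at 60 min 13.7% of all genes fell and 11.6% rose. Of 9 genes listed under elongation 1 fell, and of 29 initiation factors 2 fell, with none rising in either list. Those that fell included Eef1g (-0.58 ± 0.11) and Eif5 (-0.65 ± 0.12). Of 77 mitochondrial ribosomal protein genes, 38 rose and none fell with BRM014 at 60 min, against 16.8% and 13.4% of all genes. With ACBI1 1 rose and 3 fell, against 11.6% and 13.7%. Larp1, which binds TOP messages, rose at 4 hr in experiments 1, 2 and 3, by 2.46 ± 0.11, 2.81 ± 0.13 and 1.98 ± 0.14, and fell with BRDK98 at 4 hr of experiment 1 (-0.41 ± 0.11). At 60 min of experiment 4 it rose with ACBI1 (0.45 ± 0.13) and fell with BRM014 (-0.58 ± 0.13). Of the 15 regulators of TOP messages, 4 rose and 5 fell at 4 hr of experiment 1, 2 and 6 in experiment 2, and 2 and 3 in experiment 3; all genes rose and fell in 20.1% and 37.4%, 17.9% and 35.5%, and 16% and 30.6%. A list for the axis of free Rpl5 and Rpl11 and p53 held 4 genes. In Arid1a-/- cells at 1 hr 3 fell and 1 rose, against 16.8% and 18.7% of all genes. Those that fell were Mdm2 (-0.63 ± 0.18), Mdm4 (-0.76 ± 0.14) and Cdkn1a (-0.76 ± 0.09). With BRM014 at 60 min 1 fell and 2 rose, against 13.4% and 16.8% of all genes. Mdm2 fell there (-1.33 ± 0.09), while Cdkn1a rose (0.55 ± 0.07).

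The pattern of the family was averaged over the 44 members with a mean of at least 20 TPM. Over the 45 libraries, centred within each experiment, the genes outside the rule with the pattern most like this mean were Tmem256 (r = 0.97), Cox4i1, a subunit of cytochrome c oxidase (r = 0.97), Pih1d1 (r = 0.96), Ndufs7, a subunit of complex I (r = 0.96) and Trappc1 (r = 0.96), among 4014 genes with a mean of at least 20 TPM. Among these 44 members Rpl32, Rpl13a and Rplp0 followed the mean most closely (r = 0.96, 0.95 and 0.95), while Rpl35a (r = 0.27) and Rps24 (r = 0.25) followed it little and Rpl23 ran against it (r = -0.39). Each of these members is itself part of the mean, which raises its r. The points share libraries and the total to which TPM refer, so these values describe likeness and are given without p-values.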

How the data were processed

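Poly(A)+ RNA of 45 libraries in 4 experiments was sequenced as 50-base single-end reads of stranded libraries, per the labels' protocols. The submitters' processing notes name STAR 2.5.3a, the mm10 build, HOMER and DESeq2. Per the file headers, the deposited TPM values were made by HOMER from exon reads counted on both strands. The listed genes sum to 526364 to 658440 TPM. The authors' deposited tables of comparisons give log2 fold changes and adjusted p-values, which were read only for counts of members. One column held, for all 24537 genes, the same values as another 4 hr control of experiment 1, so the pair was counted as 1 library, and 1 further column matched no sample and was not used. At least 99.8% of low values were whole reads when divided by exon length, which gave the depth; intervals were not computed, and depth covers counting error only.

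From the deposited TPM, log2(TPM + 1) was fitted with limma 3.58.1 (R 4.3.3, trend and robust) over all groups of an experiment, for genes at 1 TPM or more in at least 2 libraries, with Benjamini-Hochberg adjustment and a threshold of 0.05. The same fit ran on TPM divided by median-ratio factors. Members and lists were chosen with earlier results of these data known. Named for each of 29 comparisons were the 4 largest and 4 smallest changes among members with a mean of at least 5 TPM, called on both scales and with groups that do not overlap; always named were the duplicate copies, the stalk and the 5 highest members; lists name up to 3 genes. Some members that meet the rule are not reported here. Of the comparisons, 3 (compound pairs at 60 min) were chosen after seeing the data. Same-numbered libraries did not deviate together: the correlations of their deviations ran from -0.24 to 0.24, so replicate numbers were not taken as pairs. Start regions are RefSeq's on GRCm38.p6, and uniqueness was computed from GENCODE M21 transcripts. Alternatives were median scaling, voom on recovered reads, every listed gene tested, a smaller pseudocount (0.1), no trend or robust moderation, a replicate block, and each library left out in turn.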

Additional observations from a re-analysis of the deposited data

Results flagged for a closer look

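For some members the effects of the compounds at 60 min of lipid A in experiment 4 differed from those at 20 min. This was the limma test of the difference itself. On both scales the members' shares were not above those of all genes. With ACBI1 the effect was lower at 60 min for 33 members on TPM (44.6%), against 17.6% of all genes. On both scales it was lower for 5 (6.76%), against 9.12%. The differences were -1.14 for Rpl39, -0.95 for Rps10, -0.90 for Rps3a1 and -0.82 for Rpl36al on the log2 scale. Rps10 had 47.0 and 56.5 TPM with ACBI1, against 74.5 and 68.4 TPM in the control at 60 min, and 92.7 and 101.8 TPM with ACBI1, against 64.4 and 73.9 TPM in the control at 20 min, so that the treated libraries were below the control at 60 min and above it at 20 min. At 20 min Rps10 was also above that shared control with BRM014 and BRDK98, by 0.65 and 0.71, beside 0.49 with ACBI1. Its time differences with BRM014 and BRDK98 were -0.15 and -0.60, and were not called.

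With BRM014 the effect was higher at 60 min for 10 members on TPM (13.5%), against 8.62% of all genes. On both scales it was higher for 5 (6.76%), against 6.85%. The differences were 1.21 for Rps25, 0.79 for Rpl17 and 0.73 for Rps2. Rpl17, a large subunit protein at the exit tunnel, had 9.06 and 8.53 TPM with BRM014, against 5.84 and 6.53 TPM in the control at 60 min, and 5.45 and 6.14 TPM with BRM014, against 8.71 and 6.63 TPM in the control at 20 min. With BRDK98 the effect was higher at 60 min for 1 member on both scales (1.35%), Rps25, by 1.13, against 3.58% of all genes. Both tests of Rps25 share the control libraries, which had 16.8 and 20.0 TPM at 60 min and 31.9 and 25.5 TPM at 20 min.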

How the results depend on the processing

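Counts of members called on TPM were recomputed for 29 comparisons under 298 alternatives, of which 197 stayed within 1.5 times with the same leading direction; of 862 alternatives for 88 named values 759 stayed on their side of the threshold, 103 lost it and 0 changed sign. Median scaling moved most counts. In experiment 1 it gave 22 in place of 32 at 1 hr, with more higher than lower, 27 in place of 44 with BRM014 and 25 in place of 42 with BRDK98 at 4 hr, and 9, 7 and 8 for BRM014 against ACBI1, BRDK98 against ACBI1 and BRDK98 against BRM014. In experiment 2 it gave 3 at 1 hr and 13 at 4 hr, both with more higher than lower, and 5 in Arid1a-/- cells at 1 hr; in experiment 3 it gave 12 at 4 hr. In experiment 4 it gave 35 at 60 min, 8 with ACBI1 and 19 with BRM014 at 60 min, 0 with BRM014 and 1 with BRDK98 at 20 min, 5 for each of the time differences of ACBI1 and BRM014, and 9 for BRDK98 against ACBI1. Scaling moves the median of all genes by construction; the cause of the other changes was not tested.

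Without trend or robust moderation the counts were 9 for BRDK98 against BRM014 at 4 hr, 3 for experiment 2 at 1 hr, 1 in Arid1a-/- cells at 4 hr, and 0 with BRM014 and 1 with BRDK98 at 20 min. Voom on recovered reads gave 9 for BRDK98 against BRM014 at 4 hr, 9 at 60 min and 4 with BRDK98 at 20 min. Without a filter they were 3 for experiment 2 at 1 hr, 1 in Arid1a-/- cells at 4 hr, 0 with BRM014 and 1 with BRDK98 at 20 min, and 13 for BRDK98 against BRM014 at 60 min. A pseudocount of 0.1 gave 1 with BRDK98 at 20 min. Replicate numbers do not pair the libraries; a replicate block gave 7 in Arid1a-/- cells at 1 hr, with more higher than lower, and moved no other count past 1.5 times.

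Leaving out 1 library at a time, which also leaves fewer samples, gave in experiment 1 25 to 39 at 1 hr and 60 to 61 at 4 hr; 25 to 27, 36 to 37 and 38 to 40 with ACBI1, BRM014 and BRDK98; and 10 to 13, 16 to 19 and 5 to 10 for BRM014 against ACBI1, BRDK98 against ACBI1 and BRDK98 against BRM014. The single 4 hr control could not be left out. In experiment 2 it gave 0 to 2 at 1 hr, 39 to 45 at 4 hr, 1 to 19 and 2 to 3 in Arid1a-/- cells at 1 and 4 hr, and 0 to 7 for their difference. More members were higher than lower, or the reverse, than with all libraries at 1 hr without 0 hr replicate 2 (2), and in Arid1a-/- cells without Arid1af/f replicate 2 (1) and without Arid1a-/- replicate 2 (19). In experiment 3 it gave 36 to 54 at 4 hr and 0 to 3 in Pbrm1-/- cells. In experiment 4 it gave 0 to 8 at 20 min and 3 to 12 at 60 min; 0, 0 and 0 to 1 with ACBI1, BRM014 and BRDK98 at 20 min; 16 to 26, 13 to 59 and 0 to 2 at 60 min; 13 to 28, 4 to 29 and 0 to 1 for the time differences; and 59 to 70, 25 to 36 and 4 to 48 for the 3 pairs at 60 min.

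With so few libraries per group, a member that was not called is not shown to be unchanged, and members below 1 TPM in all libraries of an experiment, or in all but 1, were not tested there.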
